A study of Mus musculus with 4 samples.

Results

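Genes of the Wnt pathway were taken from the array annotation by symbol: the Wnt ligands, the Frizzled receptors and their co-receptors Lrp5 and Lrp6, the R-spondins, the secreted antagonists, the feedback inhibitors Axin1, Axin2, Nkd1 and Nkd2, and the nuclear factors Lef1, Tcf7, Tcf7l1 and Tcf7l2. Of the 54 genes so defined, 53 were found among the 22180 genes measured, and Tcf7 was not analysed here. They comprise 19 ligands, 12 receptors, 4 R-spondins, 11 secreted antagonists, 4 feedback inhibitors and 3 nuclear factors. RNA came from mouse embryos of a mixed C57BL/6J and FVB/N background and was read on 4 Affymetrix Mouse Gene 2.0 ST arrays. Heads were taken at embryonic day 12.5 (E12.5), 1 wild type and 1 Tbx1 knockout, and palatal shelves at E13.5, again 1 of each genotype, so that every group is a single array. Which part of Tbx1 was removed, and whether an array held RNA of 1 embryo or of several, is not given in the labels. One further label field describes the E13.5 samples as heads, but the titles and tissue labels, followed here, say palatal shelves.

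Wnt proteins are lipid-modified secreted ligands. When a Wnt binds a Frizzled receptor together with Lrp5 or Lrp6, beta-catenin is spared from destruction and acts in the nucleus with the DNA-binding factors of the Lef1 and Tcf7 family. R-spondins keep Frizzled receptors at the cell surface, Dkk proteins block the co-receptors, and the Sfrp proteins, Frzb and Wif1 bind Wnt ligands outside the cell. Axin2, Nkd1 and Notum are classical target genes that dampen the signal in return. In the developing face, Wnt signalling takes part in outgrowth and patterning of the palatal shelves, the paired outgrowths that form the secondary palate, and in the embryonic brain it patterns the dorsal midline and the forebrain.

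Values are log2 expression as deposited after RMA, so a difference of 1 is 2-fold, and levels of different genes are not comparable because their probes differ. Pearson's r over 41345 transcript clusters was between 0.973 and 0.991 for the array pairs, and arrays have no read depth, so their number limits the precision. A gene entered a comparison when its highest array there reached 6.16, the median over genes and arrays. Of the 53 Wnt genes, 31 were at or above that limit on every array and 18 were below it on every array, so that their differences are compressed and are given below as values of dim genes. Tbx1 itself, the T-box factor removed in the knockout, was at 6.83 and 6.25 in wild-type and knockout head and at 7.39 and 6.18 in wild-type and knockout shelves. Of 11 palatal mesenchyme markers, 9 were higher in the shelves than in the head in wild type and 8 in the knockout. Osr2 (9.43 and 9.46 in the heads, 10.99 and 11.15 in the shelves) and Tbx22 (6.57 and 6.74, then 7.91 and 8.18) were among those higher. The lowest differences were those of Osr1 in wild type (-0.37) and Mn1 in the knockout (-0.22). In whole tissue, fewer cells of a type and less RNA per cell cannot be told apart.

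**Figure D1:**
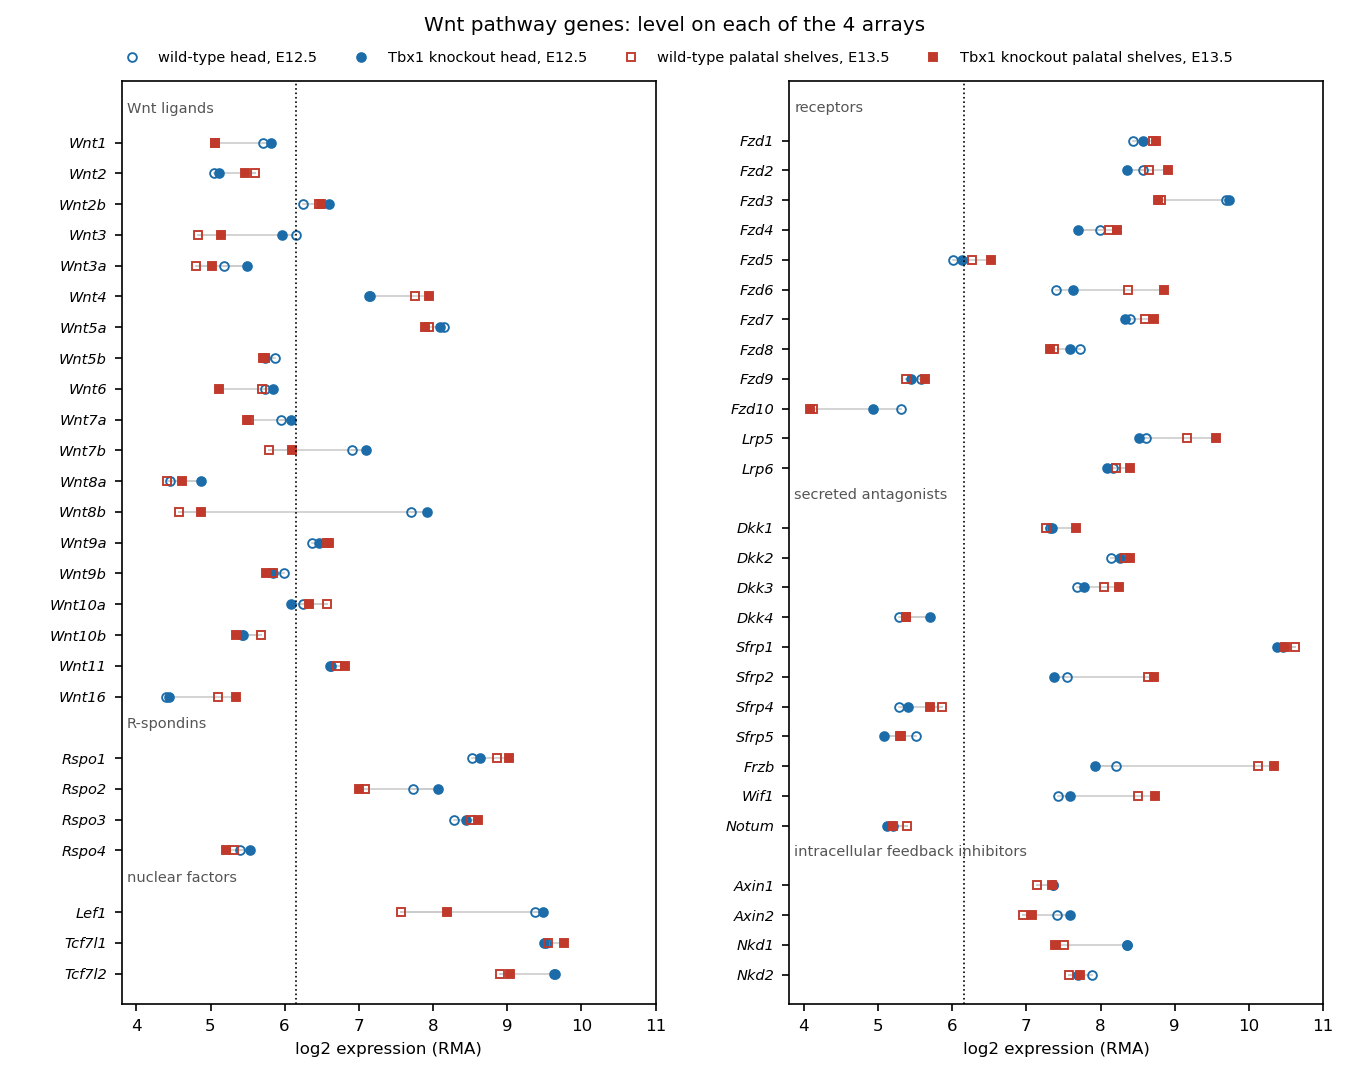
Level of each of the 53 Wnt genes on the 4 arrays (log2 expression, horizontal axis), grouped by role, with open symbols for wild type, filled symbols for Tbx1 knockout, circles for head and squares for palatal shelves. The dotted line is the entry limit of 6.16, and the widest gaps between circles and squares belong to Wnt8b, Frzb and Lef1.

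Loss of Tbx1 in the E12.5 head went with small differences in Wnt genes. Of the 34 Wnt genes that entered, 0 were 2-fold or 1.5-fold apart between the knockout and the wild-type head. Among all 11364 genes that entered, 0.0880% were at least 2-fold apart and 0.458% at least 1.5-fold. The median difference, knockout minus wild type, was 0.026 over the 53 genes and 0.0089 over all 22180 genes. Above 0 were 31 of 53, beside 52.2% of all genes. Of those that entered, 19 of 34 were above 0, beside 5052 of 11364, so bright genes as a whole leaned below 0. Over the Wnt genes at or above the upper quartile the median was -0.016, so its sign is not settled. The differences lay between -0.43 for the antagonist Sfrp5 and 0.42 for the antagonist Dkk4, both of them dim on every array. With 1 array per group these differences have no replicate check and no test. As a gauge of measurement error, the difference read by a single transcript cluster had an SD of 0.176, taken from 232 bright genes with 2 clusters each.

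By role, the 4 R-spondins were all above 0 in the knockout head, the dim Rspo4 included. Rspo2, an R-spondin of limb and craniofacial mesenchyme, was at 7.73 in wild-type head and 8.06 in knockout head, a difference of 0.34 that 1.48% of entering genes reached or passed in that direction. Rspo3 differed by 0.16, Rspo4 by 0.13 and Rspo1 by 0.10, each less than that SD of a single cluster. Among the receptors, 8 of 12 were below 0. Of the 9 receptors that entered, 3 were above 0, beside 5052 of all 11364 genes that entered. The bright receptor farthest down was Fzd4, which also binds norrin, at 7.99 and 7.70 (-0.29). Frzb was at 8.21 and 7.93 (-0.28). Of the ligands, Wnt2b had the widest bright difference, with 6.25 and 6.60 (0.35), a level close to the entry limit. The target genes stayed near each other in the pair: Axin2 was at 7.42 and 7.59, Nkd1 at 8.35 and 8.36, and Lef1 at 9.37 and 9.48. The same pair of arrays differed in other cell types: 16 of 16 skeletal muscle markers and 6 of 6 erythroid markers were below 0 in the knockout, with mean levels of 7.15 and 6.47 for muscle and 8.70 and 8.26 for erythroid markers. Sex-linked RNA also differed between the heads: Xist, transcribed from the inactive X chromosome, was at 11.10 in wild-type and 10.04 in knockout head, and the Y-linked Eif2s3y at 7.09 and 8.50. In the shelves Xist was at 10.89 and 11.02 and Eif2s3y at 8.23 and 8.43, and each was above the entry limit on all 4 arrays. The wild-type head stood apart from the other 3 arrays in Y-linked RNA, also in the comparison with wild-type shelves. The knockout head was the lowest array in Xist. The part of these differences in the Wnt values was not tested.

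In the E13.5 palatal shelves, Lef1 stood farthest from its wild-type level. Lef1, the nuclear partner of beta-catenin and itself induced by Wnt signalling, was at 7.56 in wild-type shelves and 8.19 in knockout shelves. That difference of 0.63 is 1.54-fold, and 1.62% of entering genes were at least as far up. Lef1 was the 1 entering Wnt gene of 33 that was at least 1.5-fold apart, beside 3.25% of the 11449 genes that entered, and no Wnt gene was 2-fold apart, beside 0.935% of genes. The count of Wnt genes past 1.5-fold is thus near the share among all genes. The SD of a difference read by a single cluster was 0.226 in this pair (233 genes). It compares clusters on the same arrays, so it holds no spread between embryos or dissections. Lef1 was the widest shelf difference of the 53 Wnt genes, so its passing that SD is no test.

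Differences above 0 were the more frequent in the knockout shelves: 35 of 53 Wnt genes, beside 48.6% of all genes, with medians of 0.11 and -0.0068. Bright genes as a whole leaned the same way, since 6317 of the 11449 that entered were above 0, beside 26 of 33 Wnt genes that entered. All 3 nuclear factors were above 0, with Tcf7l1, a repressor in the absence of signal, at 9.55 and 9.77, and Tcf7l2 at 8.90 and 9.04. Of the receptors 9 of 12 were above 0. Fzd6, a receptor tied to planar cell polarity, was at 8.37 and 8.85 (0.48), and the co-receptor Lrp5 at 9.16 and 9.56 (0.40), while Lrp6 was at 8.21 and 8.39. Among antagonists, Dkk1, a blocker of Lrp5 and Lrp6 with a role in head induction, was at 7.27 and 7.67 (0.40). Wif1 was at 8.50 and 8.73, Frzb at 10.12 and 10.33, and Sfrp1 at 10.62 and 10.49.

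The ligands went both ways in the shelves, 10 above 0 and 9 below. Wnt5a, the main ligand of beta-catenin-independent signalling in facial mesenchyme, was at 7.95 and then 7.89 in the knockout, and Wnt11, another ligand of that branch, at 6.71 and 6.81. Wnt4, a ligand of epithelia and glands, was at 7.76 and 7.95. The lowest difference was that of Wnt6, an ectodermal ligand, at 5.70 and 5.11 (-0.59), below the entry limit on every array. Wnt10a, a ligand of tooth and skin epithelium, was at 6.57 and 6.33. Feedback genes differed little: Axin2 was at 6.95 and 7.07, Nkd1 at 7.51 and 7.39, Axin1 at 7.15 and 7.35 and Nkd2 at 7.57 and 7.73.

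**Figure D2:**
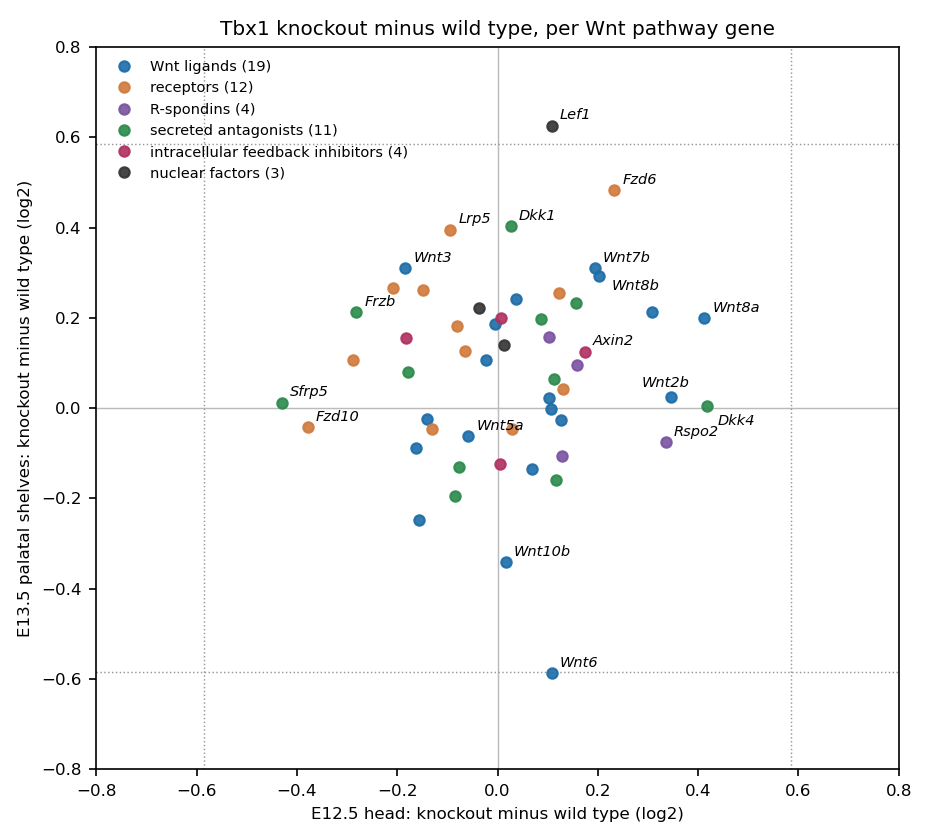
Knockout minus wild-type difference (log2) of each Wnt gene in the E12.5 head (horizontal axis) and in the E13.5 palatal shelves (vertical axis), with 1 point per gene coloured by role and dotted lines at 1.5-fold. Lef1 (0.63) and Wnt6 (-0.59) are the 2 points beyond the dotted lines, both in the shelves, and no gene lies beyond them in the head.

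Markers of other cell types and of the hypoxia response, a tissue state, differed between the same shelf arrays. Neuron markers were above 0 in 15 of 16 genes, with a mean level of 7.29 in wild-type and 7.87 in knockout shelves, and hypoxia-response genes in 15 of 15, with 7.45 and 8.17. Olfactory epithelium markers were below 0 in 7 of 7 genes, with 7.70 and 6.04, and skeletal muscle markers in 15 of 16, with 7.05 and 6.07. Palatal mesenchyme markers were above 0 in 8 of 11 genes, with 8.92 and 9.03, and oral and nasal epithelium markers in 3 of 11, with a median difference of -0.10. The part of these cell types and of the hypoxia response in the Wnt values was not tested.

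**Figure D3:**
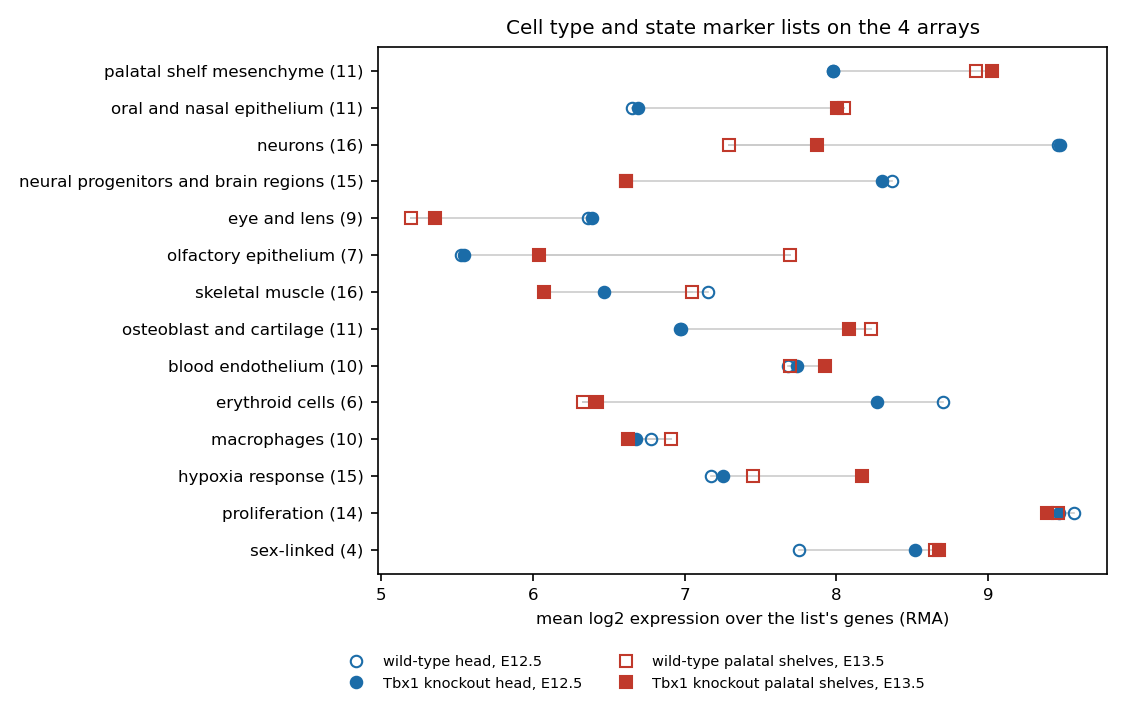
Mean log2 expression of 14 marker lists on the 4 arrays (horizontal axis), with the number of genes per list in parentheses and symbols as in the plot of Wnt gene levels. Neuron markers stand at 9.46 and 9.47 in the heads, 7.29 in wild-type shelves and 7.87 in knockout shelves.

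Both pairs together gave no Wnt gene that passed a test of genotype. An additive limma fit of genotype and tissue over 11999 genes, with 1 residual degree of freedom and a prior of 5.49 degrees of freedom and SD 0.107, set the 2 knockout arrays against the 2 wild-type arrays. After Benjamini-Hochberg adjustment in limma, 0 of 35 Wnt genes tested had an adjusted p under 0.05, beside 0% of all genes, and the smallest adjusted p of a Wnt gene was 0.919. Tbx1 itself did not pass either, with a fitted difference of -0.89 (SE 0.16, limma adjusted p 0.555). A test that does not call the gene removed cannot show that Wnt genes were unchanged. At an unadjusted limma p under 0.05 there were 4 of 35 (11.4%), Wnt7b, Wnt8b, Fzd6 and Lef1, beside 5.23% of all genes. The fitted difference was 0.36 (SE 0.11) for Fzd6, 0.37 (SE 0.14) for Lef1, 0.25 (SE 0.10) for Wnt7b and 0.25 (SE 0.10) for Wnt8b. Wnt7b and Wnt8b entered through the heads and were under the entry limit in both shelf arrays, so their shelf differences are those of dim signals. For Axin2 it was 0.15 (SE 0.099) and for Frzb -0.035 (SE 0.14). Over all 53 genes, 29 (54.7%) had the same sign in the head and the shelf pair, which share no array, beside 49.8% of all genes. With each array centred on its median, 1 of 36 Wnt genes tested had an unadjusted limma p under 0.05, and with no filter on dim genes 2 of 53 did. When limma modelled a mean-variance trend, 11 of all genes passed and with 1 common variance 150 did, none of them a Wnt gene.

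The tissues differed far more than the genotypes. Palatal shelves at E13.5 had more RNA of 4 of the 7 secreted antagonists tested, Frzb, Sfrp2, Wif1 and Dkk3, and less of Lef1, Tcf7l2, Axin2 and Nkd1 than the head at E12.5, in both genotypes. Frzb was 4.46-fold higher, Sfrp2 2.33-fold and Wif1 2.15-fold, and Lef1 was 2.93-fold lower. The ligand Wnt8b was 8.49-fold lower on this scale, with shelf levels under the entry limit, where differences are compressed. In the additive limma fit, 8 of 35 Wnt genes tested were higher in the shelves (22.9%, beside 13.0% of all genes) and 8 were lower (22.9%, beside 14.9%) at an adjusted p under 0.05. Of the lower ones, Wnt7b and Wnt8b entered through the heads alone, so the filter itself favoured that direction for them. Tissue and stage change together in this design and cannot be told apart. The SE rests mostly on the prior estimated over all genes. The 1 residual degree of freedom is how far the tissue difference disagrees between wild type and knockout. The SE and limma p-values here and below thus hold no separate estimate of spread between embryos.

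Within the wild-type arrays, 3 Wnt genes passed 2-fold upwards in the shelves, Frzb, Sfrp2 and Wif1, beside 2.89% of entering genes, and 3 were at least 2-fold lower, Wnt8b, Wnt7b and Lef1, beside 5.27%. Within the knockout arrays the same 6 genes were 2-fold apart the same way. Fzd6 and Lrp5 joined the higher genes there, beside 2.66% of entering genes, and Rspo2 the lower ones, beside 4.06%. In each comparison 35 Wnt genes entered. Of the 35 Wnt genes tested, 32 (91.4%) had the same sign in the wild-type and the knockout arrays, which share no array, beside 77.9% of the 11999 genes tested.

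**Figure D4:**
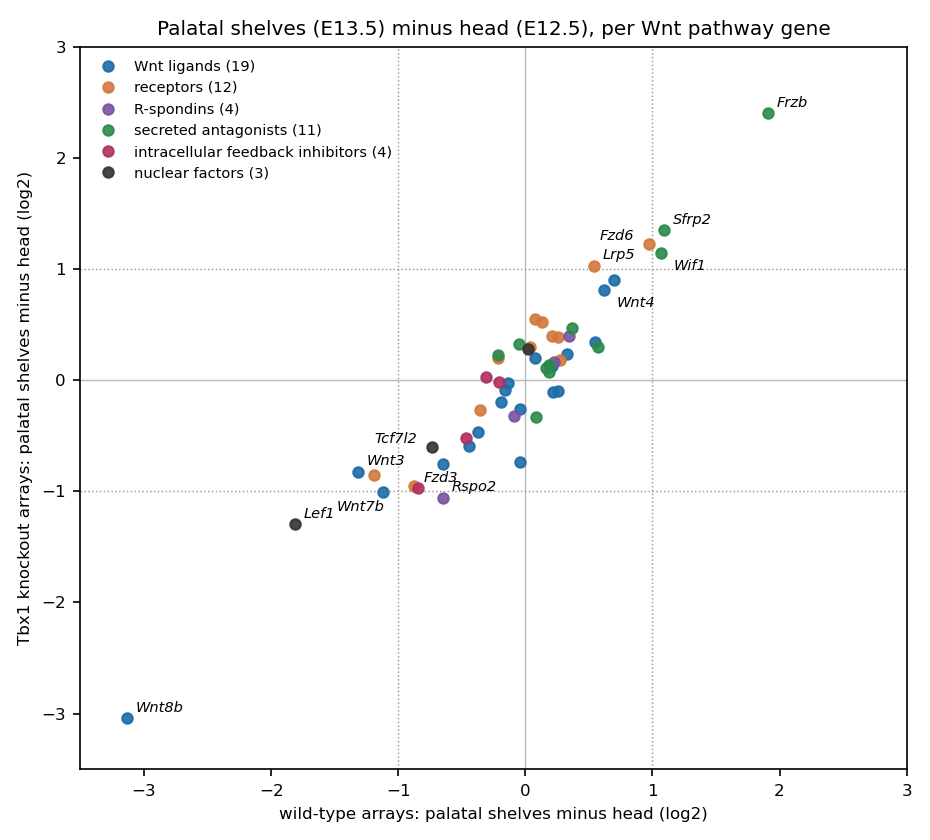
Palatal shelves minus head (log2) of each Wnt gene in the wild-type arrays (horizontal axis) and in the Tbx1 knockout arrays (vertical axis), with 1 point per gene coloured by role and dotted lines at 2-fold. Frzb (1.91 and 2.41) and Wnt8b (-3.13 and -3.04) lie at the ends, and Lef1 lies at -1.81 and -1.29.

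The start-site regions of the 3 Wnt genes with the widest tissue difference are shown, a choice made by tissue and not by genotype. T-box letters are marked in them because the factor removed is a T-box protein. Whether Tbx1 acts on these genes was not tested. Each is a 300-base window of RefSeq on GRCm38.p6, from 250 bases before a transcript start to 50 after it, given 5′ to 3′ on the gene's strand. Frzb lies on the minus strand at chr2:80447347-80447646, Lef1 on the plus strand at chr3:131112541-131112840 and Wnt8b on the plus strand at chr19:44493222-44493521. Capitals mark the letters AGGTGT, the core of a T-box site, or their reverse complement ACACCT.
Frzb: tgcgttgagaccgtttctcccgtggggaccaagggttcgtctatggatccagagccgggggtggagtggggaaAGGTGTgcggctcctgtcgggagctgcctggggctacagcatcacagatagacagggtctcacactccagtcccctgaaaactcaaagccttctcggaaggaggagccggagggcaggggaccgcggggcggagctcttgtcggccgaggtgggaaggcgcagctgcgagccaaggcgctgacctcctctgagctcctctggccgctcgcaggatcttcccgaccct
Lef1: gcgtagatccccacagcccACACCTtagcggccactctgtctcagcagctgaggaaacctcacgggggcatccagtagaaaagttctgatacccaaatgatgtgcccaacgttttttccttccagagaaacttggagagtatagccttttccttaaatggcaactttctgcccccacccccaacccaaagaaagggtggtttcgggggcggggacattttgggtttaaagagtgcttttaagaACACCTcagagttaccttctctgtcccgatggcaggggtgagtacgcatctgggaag
Wnt8b: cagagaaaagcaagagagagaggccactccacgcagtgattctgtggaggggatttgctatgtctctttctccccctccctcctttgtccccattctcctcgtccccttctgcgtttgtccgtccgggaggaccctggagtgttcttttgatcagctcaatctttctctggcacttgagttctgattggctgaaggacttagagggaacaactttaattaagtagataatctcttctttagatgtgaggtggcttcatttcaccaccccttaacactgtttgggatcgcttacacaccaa
The Frzb window holds 1 match and the Lef1 window 2, whereas the Wnt8b window holds 0. The Lef1 window was chosen among 4 start windows of that gene for its matches, and 2 of the 4 hold any.

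Over all Wnt genes these letters were about as frequent as elsewhere. Of the 53 genes, 35 had a start window, 42 windows in all, and AGGTGT on either strand was present in 6 windows (14.3%), beside 13.7% of all 32851 windows. The genes with a match were Frzb, Lef1, Nkd1, Wnt2b and Wnt5b. The TCF/LEF letters CTTTGAT or CTTTGAA, on either strand, were present in 3 member windows (7.14%), of Dkk1, Wnt11 and Wnt5b, beside 8.65% of all windows. A match describes letters and is not evidence of binding.

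Among the roles of the 53 Wnt genes, secreted antagonists had the most genes higher in the shelves, 4 of 7 tested (57.1%, beside 13.0% of all genes). None was lower, beside 14.9% of all genes, but further extracellular modulators, given below, went both ways. Frzb, first known from cartilage and a binder of Wnt ligands, was at 8.21 and 7.93 in wild-type and knockout head and at 10.12 and 10.33 in wild-type and knockout shelves, so that both shelf arrays lay above both heads. The fitted difference, shelves minus head, was 2.16 (SE 0.14, limma adjusted p 0.000165). Sfrp2, a secreted Frizzled-related protein, was at 7.55 and 7.37 in the heads and 8.64 and 8.72 in the shelves, a difference of 1.22 (SE 0.11, limma adjusted p 0.000521). It is read by 2 transcript clusters, and both were higher in the shelves (1.27 and 0.91 in wild type). Wif1 was at 7.43 and 7.59 and then at 8.50 and 8.73, a difference of 1.10 (SE 0.0998, limma adjusted p 0.000509). Dkk3, a divergent Dkk protein, was at 7.69 and 7.77 and then at 8.05 and 8.25, with a limma adjusted p of 0.0237 that became 0.0805 with no filter on dim genes. Sfrp1 (10.38 to 10.62), Dkk2 (8.15 to 8.40) and Dkk1 (7.27 to 7.67) did not pass. Dkk4, Sfrp4, Sfrp5 and Notum were below the entry limit on every array.

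Nuclear factors and feedback inhibitors are short lists, with 2 of 3 and 2 of 4 genes lower in the shelves, beside 14.9% of all genes. None of them was higher, beside 13.0% of all genes. Lef1 was at 9.37 and 9.48 in the heads and at 7.56 and 8.19 in wild-type and knockout shelves, a difference of -1.55 (SE 0.14, limma adjusted p 0.000527). The knockout shelf array stood between the wild-type shelf array and the heads. Tcf7l2, a partner of beta-catenin that is abundant in thalamus, was at 9.64 and 9.65 in the heads and 8.90 and 9.04 in the shelves (-0.67, SE 0.10, limma adjusted p 0.0040). Tcf7l1 lay between 9.49 and 9.77 on the 4 arrays and did not pass. Nkd1, which binds Dishevelled and dampens the signal, was at 8.35 and 8.36 and then at 7.51 and 7.39 (-0.91, SE 0.10, limma adjusted p 0.00115).

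Axin2, the most widely used reporter of beta-catenin signalling, was at 7.42 and 7.59 in the heads and at 6.95 and 7.07 in the shelves. The fitted difference was -0.49 (SE 0.099, limma adjusted p 0.0121). Its 2 clusters agreed in direction for tissue (-0.62 and -0.32 in wild type) but not for genotype in the head (-0.0055 and 0.35). The second cluster was dim, at 5.98 and 6.33 in wild-type and knockout head, and the first was bright, at 8.86 and 8.85. Axin1, the constitutive scaffold of the destruction complex, lay between 7.15 and 7.36, and Nkd2 between 7.57 and 7.88. Neither passed.

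Among ligands, 8 of 19 were tested. In the shelves 1 was higher (12.5%, beside 13.0% of all genes) and 2 were lower (25%, beside 14.9%). The lower ligands, Wnt8b and Wnt7b, entered through the heads alone and were under the entry limit in both shelf arrays. Their entry favoured a lower call, so that share is no support for a trait of ligands. Wnt8b, a ligand of the dorsal forebrain and hippocampal margin, was at 7.71 and 7.91 in the heads and at 4.58 and 4.87 in the shelves, a difference of -3.09 (SE 0.10, limma adjusted p 4.27e-05). Wnt7b, expressed in forebrain neurons and in epithelia, was at 6.91 and 7.10 and then at 5.79 and 6.09 (-1.07, SE 0.10, limma adjusted p 0.000613). Wnt4 was at 7.14 in each head and at 7.76 and 7.95 in the shelves (0.71, SE 0.11, limma adjusted p 0.00356). Wnt5a was at 8.15 and 8.09 in the heads and at 7.95 and 7.89 in the shelves, a difference of -0.20 (SE 0.099) with a limma adjusted p of 0.19. Wnt11, Wnt9a, Wnt2b and Wnt10a stayed within 6.09 to 6.81 on every array and did not pass. The other 11 ligands were below the entry limit throughout. Of these Wnt3, a ligand of facial ectoderm and cortex, was at 6.15 and 5.96 in the heads and at 4.83 and 5.14 in the shelves. Wnt1, the roof plate and midbrain ligand, was at 5.71 and 5.82 and then at 5.07 and 5.06.

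Receptors and R-spondins went both ways. Fzd6 was at 7.40 and 7.63 in the heads and at 8.37 and 8.85 in the shelves (1.10, SE 0.11, limma adjusted p 0.000748). Lrp5, best known for its role in bone mass, was at 8.62 and 8.52 and then at 9.16 and 9.56 (0.79, SE 0.14, limma adjusted p 0.00689). Fzd3, a receptor needed for axon tracts, was lower, with 9.70 and 9.73 in the heads and 8.82 and 8.77 in the shelves (-0.92, SE 0.0998, limma adjusted p 0.00104). Fzd1, Fzd2, Fzd4, Fzd5, Fzd7, Fzd8 and Lrp6 did not pass, with differences between -0.31 for Fzd8 and 0.33 for Fzd4. The 2 clusters of Lrp6 gave opposite signs in wild type (0.29 and -0.21). Fzd9 and Fzd10 were dim on every array, and Fzd10 was at 5.32 and 4.94 in the heads and at 4.13 and 4.08 in the shelves.

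Rspo2 and Rspo1 differed in opposite directions between the tissues. Rspo2 was at 7.73 and 8.06 in the heads and at 7.08 and 7.01 in the shelves (-0.85, SE 0.13, limma adjusted p 0.00371). Rspo1 was at 8.53 and 8.63 and then at 8.87 and 9.02, a difference of 0.37 (SE 0.099) with a limma adjusted p of 0.0352. That call was lost with arrays centred on their median (adjusted p 0.0643), with no filter on dim genes (0.111) and with 1 common variance (0.0509). Rspo3 lay between 8.29 and 8.61 on the 4 arrays and did not pass.

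**Figure D5:**
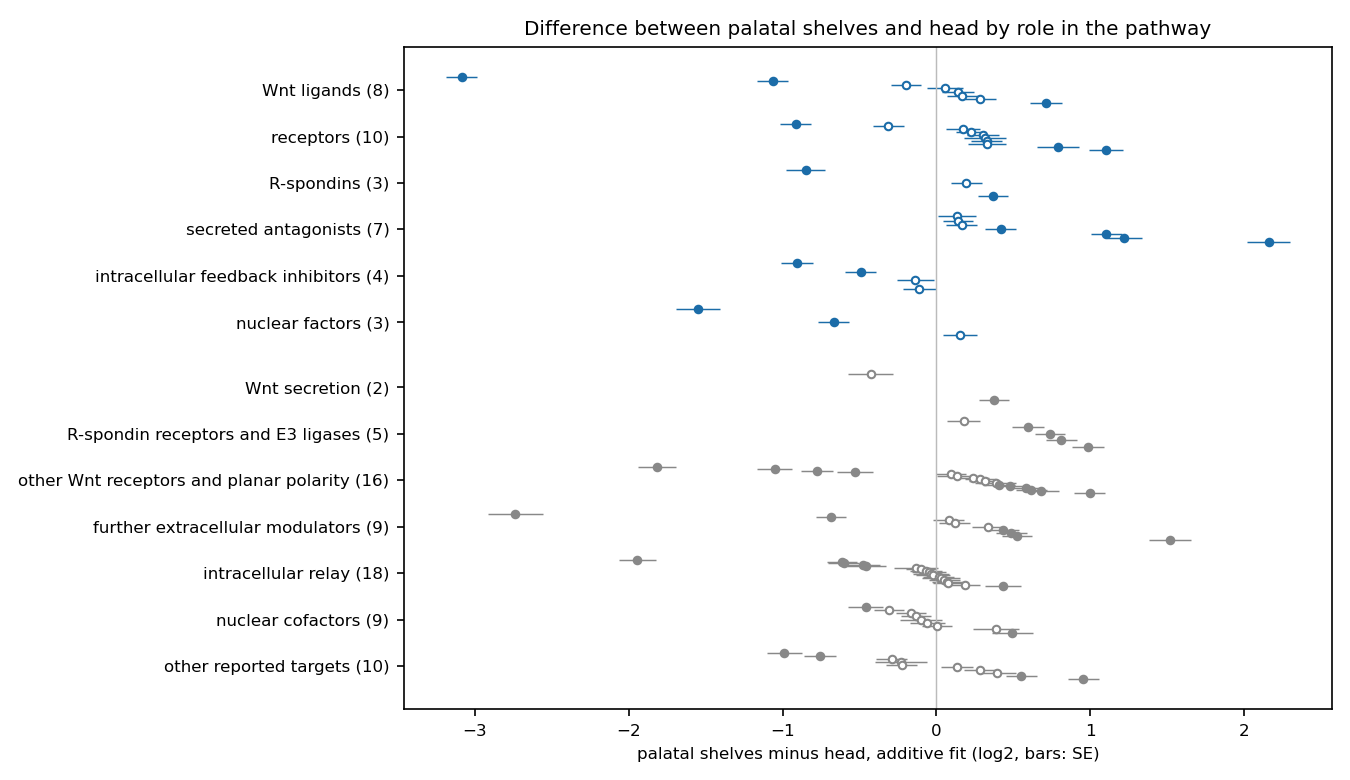
Palatal shelves minus head (log2, horizontal axis) from the additive limma fit for each gene tested, by role, with Wnt genes in blue, the other pathway genes in grey, bars for the SE and filled points for an adjusted p under 0.05. Secreted antagonists and R-spondin receptors have filled points above 0 alone, and feedback inhibitors and nuclear factors below 0 alone.

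The rest of the pathway was read from a list of secretion, receptor, relay, cofactor and target genes, 76 of which were measured. For genotype, none of these was 1.5-fold apart in either pair, beside 0.458% of entering genes in the head and 3.25% in the shelves. Of 69 tested, 0 had a limma adjusted p under 0.05, beside 0% of all genes. At an unadjusted limma p under 0.05 there were also 0, beside 5.23% of all genes. In the head 29 of 76 were above 0 (median -0.022), beside 52.2% of all genes (median 0.0089). Of those that entered, 23 of 68 were above 0, beside 5052 of all 11364 genes that entered. In the shelves 55 of 76 were above 0 (median 0.086), beside 48.6% of all genes (median -0.0068). Of those that entered, 51 of 67 were above 0, beside 6317 of 11449. The shelf differences ran from Cby1, a beta-catenin antagonist, at -0.43 to Porcn, the enzyme that acylates Wnt ligands, at 0.55. Porcn was at 7.78 in wild-type and 8.33 in knockout shelves, and at 8.48 in each head. Ctnnb1, which encodes beta-catenin, differed by 0.12 in the head and 0.018 in the shelves.

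Between tissues, 19 of these 69 genes were higher in the shelves (27.5%, beside 13.0% of all genes) and 14 were lower (20.3%, beside 14.9%). Of the R-spondin receptors and the ligases they act on, 4 of 5 were higher, and the share among all genes was 13.0%. Rnf43, a ligase that removes Frizzled from the surface, was at 6.33 and 6.58 in the heads and at 7.41 and 7.47 in the shelves. Its fitted difference was 0.98 (SE 0.11, limma adjusted p 0.000974). The receptors Lgr4, Lgr5 and Lgr6 had differences of 0.81, 0.59 and 0.74, and Znrf3, the close relative of Rnf43, did not pass (0.18). Lgr5 entered through the shelves alone, with 6.03 and 6.07 in the heads.

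Extracellular modulators and relay genes held the widest differences of that list. Of 9 extracellular modulators tested, 4 were higher in the shelves (44.4%, beside 13.0% of all genes). The 2 lower ones (22.2%, beside 14.9%) were Draxin and Apcdd1 (-0.69). Sostdc1, a secreted modulator of Wnt and BMP signals in teeth and palatal ridges, was 2.87-fold higher in the shelves, with 8.23 and 8.02 in the heads and 9.50 and 9.78 in the shelves. Gpc3, a cell-surface glypican, was 1.99-fold higher and Ccn4, a matrix protein first found as a Wnt target, 1.94-fold higher. Draxin, an axon guidance protein that also inhibits Wnt signalling, was 6.66-fold lower, with 9.56 and 9.23 in the heads and 6.45 and 6.86 in the shelves. Apc2, the neuronal relative of Apc, was 3.85-fold lower, Celsr3, a cadherin of axon tracts, 3.52-fold lower and Celsr2 2.07-fold lower. Of 18 relay genes tested, 5 were lower (27.8%, beside 14.9% of all genes) and 1 was higher (5.56%, beside 13.0%). Besides Apc2, the lower ones were Dvl3, Gsk3b, Apc and Csnk1e, with differences between -0.61 and -0.46. Ctnnb1 (0.071, limma adjusted p 0.64) and Csnk1a1 (0.077) did not pass.

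Neural markers were lower together with the genes that were lower in the shelves. Neuron markers were below 0, shelves minus head, in 16 of 16 genes in wild type (median -2.16) and in 16 of 16 in the knockout (median -1.72), and markers of neural progenitors and brain regions in 15 of 15 and 14 of 15. Palatal mesenchyme markers were above 0 in 9 of 11 and 8 of 11, and oral and nasal epithelium markers in 10 of 11 in each. Markers of osteoblasts and cartilage were above 0 in 9 of 11 in each. Erythroid markers were below 0 in 6 of 6 in each. Olfactory epithelium markers were above 0 in 6 of 7 in wild type (median 1.65) and in 5 of 7 in the knockout (median 0.26). Eye and lens markers were below 0 in 9 of 9 in wild type and in 7 of 9 in the knockout, of which 4 and 5 entered. Hypoxia-response genes were above 0 in 14 of 15 in wild type (median 0.22) and in 15 of 15 in the knockout (median 0.81). The part of cell makeup and of the hypoxia response in the tissue differences of the Wnt genes was not tested.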

How the data were processed

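Total RNA of 4 samples, 1 per group, was labelled with biotin and hybridised, per the labels' protocols. The authors deposited log2 values for transcript clusters, and the submitters' processing notes name RMA and Affymetrix Expression Console. No version, build or annotation is named. RMA sets arrays to a common distribution, so a shift shared by most genes is removed and differences of dim genes are compressed.

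Clusters with 1 gene symbol (23521 of 41345) were averaged per gene on the log2 scale, giving 22180 genes; 23328 of these clusters matched RefSeq by identifier. Groups came from the sample titles. Pair differences had no test, and limma (3.58.1, R 4.3.3; lmFit and eBayes) fitted genotype and tissue additively over genes reaching 6.16 on any array, with p-values adjusted over all 11999. The fit was run on simulated data with additive effects, where only the mean fitted difference was checked, not the error rate of the p-values. Named genes were all members, printed in full when 1.5-fold apart by genotype, 2-fold apart by tissue in both genotypes or outermost in a role. Some further members passing the fit or needed for their role, and the genes named from other lists beyond those past 1.5-fold or widest by tissue, were added after values were seen. Members and lists were chosen with earlier results of these data known.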

Additional observations from a re-analysis of the deposited data

How the results depend on the processing

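Each pair difference and the fit were recomputed after median centring, cyclic loess or renewed quantile scaling of the arrays, with a gene's brightest cluster in place of the mean, with the entry limit removed or raised to 7.79, and with other limma priors. Of 107 alternative values of counts and medians over Wnt genes, 103 stayed within 1.5 times (counts) or within the SD of a single cluster (medians). That SD exceeds the medians, so their signs are not settled: the head genotype median was 0.026 and became -0.016 over members at or above the upper quartile, and the wild-type tissue median was 0.040 and became -0.017 after median centring. The shelf genotype median, 0.11, ranged from 0.066 to 0.16. The other 4 values changed only the fold that is counted. In the shelves, 1 Wnt gene was apart from 1.5-fold on, where 0 were at 2-fold. Between tissues, 12 wild-type differences passed at 1.5-fold and 3 at 3-fold, where 6 did at 2-fold, and 2 knockout differences passed at 3-fold, where 9 did at 2-fold. Of 16 tissue calls, 14 held in every alternative in which the gene was tested, and Rspo1 and Dkk3 did not. Leaving out 1 array leaves a single pair and no test, with median genotype differences between 0.026 and 0.11 and median tissue differences between 0.040 and 0.11. The additive fit compares the genotypes within each tissue, and no replicate block could be added because the labels give no replicate numbers and each group has 1 array.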

Other observations

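Some Wnt ligand genes are direct neighbours among protein-coding genes in RefSeq, and 4 such pairs were measured. In the knockout shelves, Wnt6 and Wnt10a were both below wild type (-0.59 and -0.25), and Wnt3a and Wnt9a were both above it (0.21 and 0.022). Wnt10b and Wnt1 differed by -0.34 and -0.0029. Wnt9b and Wnt3 went opposite ways, with -0.089 and 0.31. In the knockout head the 2 genes of a pair differed by 0.11 and -0.16 for Wnt6 and Wnt10a, 0.31 and 0.10 for Wnt3a and Wnt9a, 0.016 and 0.11 for Wnt10b and Wnt1, and -0.16 and -0.18 for Wnt9b and Wnt3. All of these genes but Wnt9a and Wnt10a were below the entry limit on every array, so the values describe dim signals with no test.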
